A study of Mus musculus with 10 samples.

Results

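The genes described here encode fibroblast growth factor (FGF) and hepatocyte growth factor (HGF) ligands and their receptors, 9 of the 53167 gene symbols in the count table. They were chosen by symbol: the ligands Fgf1, Fgf2, Fgf7, Fgf10 and Hgf, and the receptors Fgfr1, Fgfr2, Fgfr3 and Met. RNA was sequenced from wild-type mouse mammary epithelial cells in primary culture, which were grown in DMEM with serum. The BGN group comprised 5 samples given biglycan protein, a matrix proteoglycan, at 100 ng/mL in the medium. The Control group comprised 5 samples to which no biglycan was added. The labels give no strain, age or duration of stimulation, and do not state whether the replicates are separate animals or cultures; the p-values therefore reflect only the spread among these samples, which may be technical. Of the 9 genes, 8 had at least 1 count, 7 passed the filter on low counts and entered the test, and Fgf7 and Fgf10 did not.

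FGF ligands bind receptor tyrosine kinases together with heparan sulphate, and HGF binds the receptor tyrosine kinase MET; both routes activate RAS and ERK through shared adaptor proteins. In the mammary gland, FGF7, FGF10 and HGF are known mainly as products of the stroma that act on the epithelium. FGF10 and the epithelial splice form of FGFR2 are required for the mammary buds of the mouse embryo, and HGF drives branching of mammary epithelium in culture. Reads were counted per gene, so splice forms of the receptors, which differ in the ligands they bind, cannot be told apart here.

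Between 18292624 and 21820560 reads were counted per library. Epithelial keratins were abundant. Krt14, a basal keratin, stood at 3519 ± 78.5 CPM (gene counts divided by library size) in BGN and 3747 ± 372 CPM in Control (SD over 5 libraries per group, here and below). Krt8, a luminal keratin, stood at 874 ± 26.1 CPM in BGN cells and 916 ± 46.8 CPM in Control. The basal list was uneven. Acta2 stood at 26.7 ± 2.66 CPM in BGN cells and 28.6 ± 3.88 CPM in Control, and Mylk at 4.01 ± 0.744 and 3.87 ± 0.646 CPM. Cnn1 had 53 and Myh11 40 counts over all libraries. Krt5, Trp63 and Oxtr, the rest of that list, were more abundant than Acta2 in both groups. Fibroblast markers, of which 10 of 11 were detected, summed to 46.4 to 52.7 CPM in the BGN libraries and 40.6 to 59.8 CPM in the Control libraries, most of it from Pdgfra (39.4 ± 2.35 CPM in BGN cells and 38.0 ± 6.91 CPM in Control). Among the defining genes of that list, Col1a1 stood at 4.63 ± 0.799 CPM in BGN cells and 4.21 ± 1.10 CPM in Control, Dcn at 2.64 ± 0.757 and 2.62 ± 0.472 CPM, Lum had 4 counts in all and Dpt had 0. Endothelial markers summed to 7.38 to 8.76 CPM in BGN cells and 8.27 to 9.29 CPM in Control, and adipocyte markers to 0.779 to 1.75 CPM in BGN cells and 0.635 to 2.49 CPM in Control. The other lists were carried by genes that mammary epithelium is also known to express: Cd14 gave 402 ± 13.8 CPM of the myeloid sum in BGN cells and 402 ± 28.5 CPM in Control, Notch3 gave 149 ± 8.12 CPM of the pericyte sum in BGN cells and 151 ± 13.4 CPM in Control, and Sox10 gave 131 ± 6.85 CPM of the Schwann cell sum in BGN cells and 132 ± 7.76 CPM in Control. Lymphocyte markers had 4 counts over all libraries, all of Cd79a. Ptprc, the pan-leukocyte gene, and Adipoq, the adiponectin gene, had 2 counts each over all libraries. None of 11 library measures passed the threshold between BGN and Control (two-sided exact permutation tests, smallest unadjusted p = 0.0397 for the endothelial sum, 0.437 after Benjamini-Hochberg adjustment over the 11). Control replicate 5 gave 1.16% of its reads to mitochondrially encoded genes, the lowest share of the 10 libraries, which reached 2.27%.

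Transcripts of Fgfr1, Met and Fgfr2 were plentiful, those of Fgf1 were intermediate, and those of Fgfr3 and the other ligands were low or not detected. None of the 7 tested genes passed the test between BGN and Control. Of these 7, 0 were called higher and 0 lower, against 0% of all 14415 tested genes (edgeR quasi-likelihood test, Benjamini-Hochberg adjusted p under 0.05). Their adjusted p-values lay between 0.988 and 0.996, and 0 had an unadjusted p under 0.05, against 4.81% of all tested genes. The libraries of the groups overlapped for each of the 8 detected genes; groups did not overlap for 0.728% of all tested genes. In bulk RNA, fewer cells of a type and less RNA per cell cannot be told apart. All CPM values of these genes were scaled by TMM factors.

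**Figure D1:**
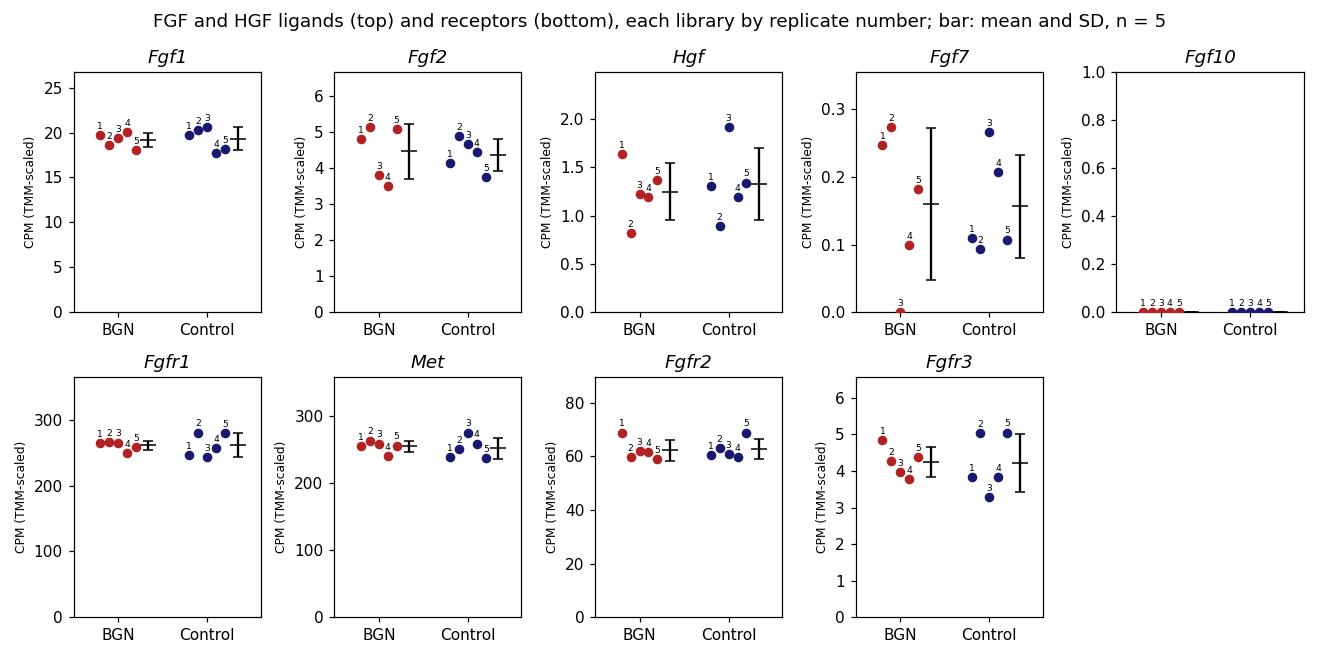
CPM of each ligand (top row) and receptor (bottom row) in every library, with BGN in red and Control in dark blue, points labelled by replicate number and bars giving the mean and SD of 5 libraries. The groups overlap in each panel, and Fgf10 had 0 counts in all 10 libraries.

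Fgf1, which encodes a ligand able to bind all the classical FGF receptors, was the most abundant ligand, also per length. It was measured at 19.8, 18.6, 19.3, 20.1 and 18.1 CPM in BGN replicates 1 to 5, and at 19.7, 20.3, 20.6, 17.7 and 18.2 CPM in Control replicates 1 to 5. All 10 values lay within a narrow band, and both the highest and the lowest were Control libraries. The mean was 19.2 ± 0.824 CPM in BGN cells and 19.3 ± 1.27 CPM in Control. The log2 fold change, BGN over Control, was -0.011 ± 0.068 (SE), with a 95% interval of the fold from 0.900 to 1.095 (edgeR adjusted p = 0.994).

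Fgf2, the gene of basic FGF, a ligand retained by heparan sulphate in the matrix, had fewer counts and varied more. BGN replicates 1 to 5 had 4.80, 5.14, 3.81, 3.52 and 5.10 CPM, and Control replicates 1 to 5 had 4.15, 4.89, 4.68, 4.45 and 3.76 CPM. BGN replicates 3 and 4 were low and the other 3 BGN libraries high, so that the BGN libraries spanned the whole range of all 10. The mean was 4.47 ± 0.758 CPM in BGN cells and 4.38 ± 0.445 CPM in Control (log2 fold change 0.027 ± 0.14 SE; 95% interval of the fold 0.838 to 1.239; edgeR adjusted p = 0.993). Fgf2 shares 640 bases of annotated exon with Nudt6 on the opposite strand, which had 27 to 39 counts per library against 70 to 112 for Fgf2. The strand setting of the counting is not given in the sources used here, so reads of this pair may not be separable.

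Hgf, the gene of the MET ligand, was near the limit of what could be tested, with 15 to 36 counts per library. Its level was 1.63, 0.820, 1.22, 1.19 and 1.37 CPM in BGN replicates 1 to 5, and 1.31, 0.893, 1.91, 1.19 and 1.34 CPM in Control replicates 1 to 5. BGN replicate 2 and Control replicate 2 were the lowest libraries, and Control replicate 3 was the highest. The mean was 1.25 ± 0.296 CPM in BGN cells and 1.33 ± 0.372 CPM in Control. The log2 fold change of -0.080 ± 0.24 (SE) had the widest interval of the tested genes described here, from 0.668-fold to 1.341-fold (edgeR adjusted p = 0.988). The fibroblast marker sum of the library lowest in Hgf, BGN replicate 2, was 52.7 CPM, the highest of the BGN group, and that of the library highest in Hgf, Control replicate 3, was 41.8 CPM. Control replicate 2, with the second lowest Hgf level, had the lowest fibroblast sum of the 10 libraries, at 40.6 CPM. Control replicate 5 had the highest fibroblast sum of the 10, at 59.8 CPM, with Hgf at 1.34 CPM. The part of fibroblasts in these values was not tested.

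Fgf7, or keratinocyte growth factor, was barely detected, with 31 counts over all 10 libraries. The 5 BGN libraries had 5, 5, 0, 2 and 4 counts in the order of their replicate numbers, and the 5 Control libraries had 2, 2, 5, 4 and 2. The values overlapped throughout, at 0.160 ± 0.112 CPM in BGN cells and 0.157 ± 0.0759 CPM in Control (exact permutation test, two-sided, p = 0.976). Fgf10, which encodes a ligand of the same epithelial receptor form, had 0 counts in every library. A count of 0 in a single library allows a level of up to 0.137 to 0.164 CPM (95% bound, counting error only). A count of 0 in all 10 libraries allows less than that.

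Fgfr1 had the highest mean count among the receptors, at 5141 per library against 4977 for Met, though Met had the higher count in Control replicates 3 and 4. BGN replicates 1 to 5 had 264, 267, 265, 249 and 259 CPM, and Control replicates 1 to 5 had 246, 280.3, 244, 257 and 280.1 CPM. The BGN values lay inside the Control range, with Control replicates 2 and 5 above and Control replicates 1 and 3 below all BGN libraries. The mean was 261 ± 7.05 CPM in BGN cells and 261 ± 17.9 CPM in Control. The log2 fold change was -0.0030 ± 0.045 (SE), and its 95% interval ran from 0.936-fold to 1.064-fold (edgeR adjusted p = 0.996).

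Fgfr2, whose epithelial splice form is the receptor of FGF7 and FGF10, was detected at 68.8, 59.6, 61.8, 61.6 and 59.1 CPM in BGN replicates 1 to 5, and at 60.5, 63.2, 60.7, 59.8 and 68.8 CPM in Control replicates 1 to 5. A single library in each group, BGN replicate 1 and Control replicate 5, stood above the rest at nearly the same value. The mean was 62.2 ± 3.90 CPM in BGN cells and 62.6 ± 3.71 CPM in Control, and the log2 fold change was -0.0091 ± 0.052 (SE; 95% interval 0.922-fold to 1.071-fold; edgeR adjusted p = 0.994). Without BGN replicate 1 the log2 fold change was -0.048, and without Control replicate 5 it was 0.027; neither was called. Fgfr2 shares 314 bases of annotated exon with Ctbp2, at 1074 to 1368 counts per library, so some of its reads may not be separable.

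Fgfr3 was scarce, at 62 to 107 counts per library. Its level was 4.85, 4.27, 3.96, 3.77 and 4.37 CPM in BGN replicates 1 to 5, and 3.82, 5.03, 3.30, 3.83 and 5.05 CPM in Control replicates 1 to 5. Control libraries formed both ends of the range, with Control replicates 2 and 5 highest and Control replicate 3 lowest. The mean was 4.24 ± 0.417 CPM in BGN cells and 4.20 ± 0.791 CPM in Control (log2 fold change 0.011 ± 0.14 SE; 95% interval 0.824-fold to 1.233-fold; edgeR adjusted p = 0.995).

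Met encodes the HGF receptor. It stood at 255, 263, 258, 240.3 and 255 CPM in BGN replicates 1 to 5, and at 238, 250.0, 275, 258 and 237 CPM in Control replicates 1 to 5. Control replicate 3 was highest and Control replicate 5 lowest, with all BGN libraries between them. The mean was 254 ± 8.48 CPM in BGN cells and 251.7 ± 15.5 CPM in Control. The log2 fold change was 0.015 ± 0.044 (SE), with a 95% interval from 0.949-fold to 1.076-fold (edgeR adjusted p = 0.988).

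Levels of different genes were compared as CPM per kilobase of the longest annotated transcript, as means over the 10 libraries. Fgfr1 came first at 51.8 ± 2.54 CPM per kilobase, followed by Met at 37.2 ± 1.75, Fgfr2 at 14.1 ± 0.812, Fgf1 at 4.83 ± 0.254, Fgfr3 at 0.995 ± 0.141, Fgf2 at 0.741 ± 0.0984, Hgf at 0.371 ± 0.0922 and Fgf7 at 0.0593 ± 0.0338 CPM per kilobase (SD, n = 10). The ranges over libraries of neighbours in this order did not overlap, except for Fgfr3 with Fgf2 and for Fgf7 with Fgf10. The order of the leading receptors depended on the length used: with the union of all annotated exons, a choice made after seeing the data, Met stood at 33.0 and Fgfr1 at 26.4 CPM per kilobase. Fgf2 also passed Fgfr3 with that length, at 0.653 and 0.590, and with the median transcript length, at 8.76 and 4.36 CPM per kilobase. Fgfr1 held 77.5 ± 1.07% of the summed level of Fgfr1, Fgfr2 and Fgfr3 per kilobase in BGN and 77.4 ± 0.658% in Control. Fgfr2 held 21.0 ± 1.03% in BGN and 21.1 ± 0.734% in Control, and Fgfr3 held 1.49 ± 0.118% in BGN and 1.47 ± 0.184% in Control. With the other lengths the share of Fgfr1 was 80.8% (median transcript) and 80.0% (exon union).

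**Figure D2:**
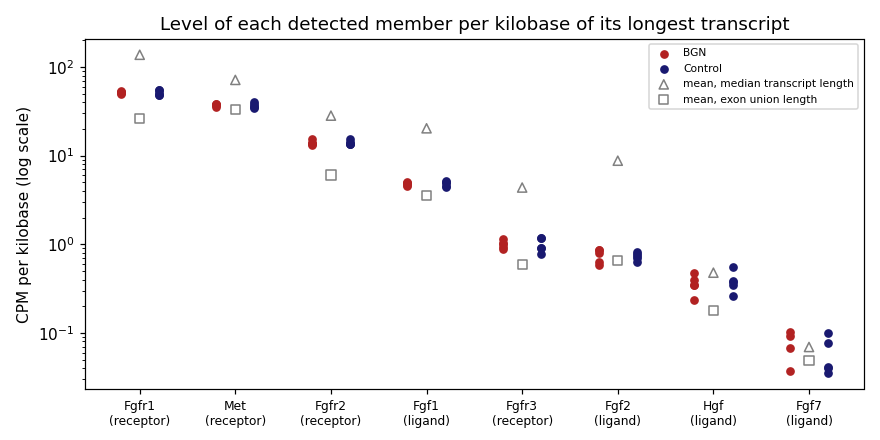
CPM per kilobase of the longest transcript on a log axis for the 8 detected genes in order of their mean, with 1 point per library, BGN in red to the left and Control in dark blue to the right; open triangles and squares give the mean over 10 libraries with the median transcript length and with the exon union length. Fgf7 in BGN replicate 3, at 0, is not drawn. Receptors hold the first 3 places and Fgf1 stands above the other ligands.

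The genes differed in how far they varied between libraries, mostly along their abundance. The biological coefficient of variation, a model estimate of the spread beyond counting error, was taken from edgeR. Each gene's estimate is drawn towards the trend over genes of the same abundance, so it is not the gene's own spread alone. The estimates were 5.58% for Fgfr1, 5.49% for Met, 5.74% for Fgfr2, 6.34% for Fgf1, 11.1% for Fgf2, 11.5% for Fgfr3 and 17.0% for Hgf. Each of these lay below the trend, which was 5.90% at Fgfr1, 7.74% at Fgf1 and 17.2% at Hgf. Closeness to the trend is partly built into the estimates. For Fgf1 the observed coefficient of variation was 4.30% in BGN and 6.59% in Control, with 5.14% expected from counting alone. On the log2 scale the SD was larger in Control than in BGN for 5 of the 7 genes, against 60.8% of all tested genes. For Fgfr1 it was 0.039 in BGN and 0.098 in Control, and for Met 0.049 in BGN and 0.088 in Control. The exceptions were Fgf2, at 0.25 in BGN and 0.15 in Control, and Fgfr2, at 0.088 in BGN and 0.083 in Control. BGN replicate 1 lay above the mean over libraries for all 7 genes, by 0.011 (Met) to 0.36 (Hgf) on the log2 scale, and in each of the other libraries some genes lay above and some below it. Control replicate 5 had the highest Fgfr3 and the lowest Met of the 10, and Control replicate 3 had the highest Fgf1, Hgf and Met and the lowest Fgfr1 and Fgfr3. Control replicate 5 is also the library with the lowest mitochondrial share. Its basal (6454 CPM), luminal (5141 CPM) and fibroblast marker sums were the highest of the 10 libraries. The same held for its adipocyte, pericyte, myeloid and Schwann cell sums, but not for its endothelial and lymphocyte sums. The part of these differences in the values was not tested.

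**Figure D3:**
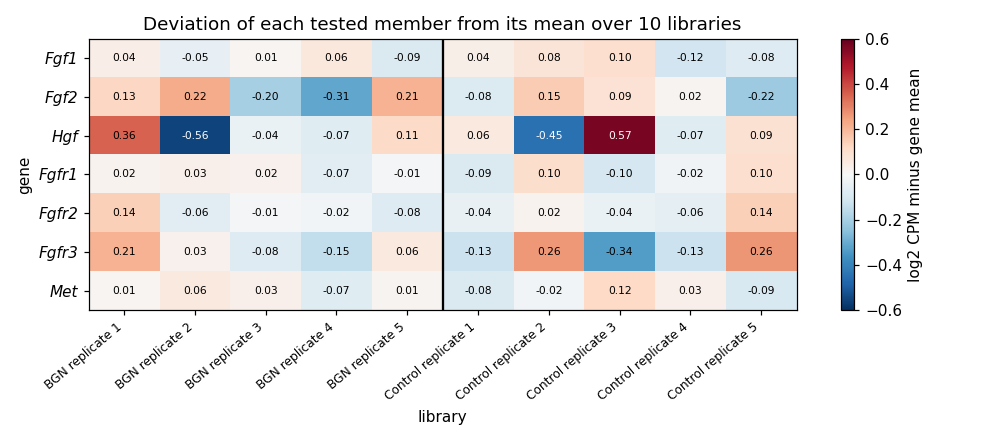
Deviation of log2 CPM from the mean over 10 libraries for the 7 tested genes (rows) in each library (columns, BGN left of the line and Control right of it); red is above and blue below the mean. The deepest colours belong to Hgf, from -0.56 in BGN replicate 2 to 0.57 in Control replicate 3, and the column of BGN replicate 1 alone is red for all 7 genes.

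For Fgf1 and Fgfr1, the ligand and the receptor with the highest mean count, the tested genes of most similar profile were sought among genes that averaged 50 or more counts and had at least the same SD over the 10 libraries. The measure was the root-mean-square difference of the log2 deviations. For Fgf1 these were Slc36a4 (0.037), Emp2 (0.038) and Timd2 (0.039), against a median of 0.14 over 8596 candidates. For Fgfr1 they were Lrp10 (0.031), Mcm3ap (0.033) and Vps51 (0.033), against a median of 0.13 over 9241 candidates. Genes picked as the closest lie below the median by selection, and no chance level was estimated. For Fgf1 the coefficient of variation expected from counting alone was 5.14%, against 4.30% observed in BGN and 6.59% in Control. The Fgf1 profile may therefore be largely counting error. For Fgfr1 counting alone gave 1.39%, against 2.70% observed in BGN and 6.84% in Control, so that limit applies to Fgf1 only. Without a chance level, no link between genes can be drawn from either match.

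The rest of the pathway was described from lists of 91 further genes, of which 68 were tested. In them 0 genes were called higher and 0 lower, 38 estimates lay above and 30 below 0, and the median log2 fold change was 0.011, against -0.0040 over all 14415 tested genes. An unadjusted p under 0.05 was found for 4 of the 68, or 5.88%, against 4.81% of all tested genes, and groups did not overlap for 1 of the 68, or 1.47%, against 0.728%.

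None of the 14 other secreted FGF ligands passed the filter on low counts. Of these, 9 had at least 1 count, Fgf21 the most with 33 counts over the 10 libraries, and 5 had 0. Among the intracellular FGF homologous factors, proteins of the FGF fold that are not secreted, Fgf11 was the 1 of 4 tested, at 3.44 ± 0.722 CPM in BGN cells and 4.26 ± 0.921 CPM in Control (log2 fold change -0.32 ± 0.17 SE, edgeR adjusted p = 0.945). Of the other receptors and co-receptors, Fgfrl1, an FGF-binding protein without a kinase domain, was at 59.2 ± 3.63 CPM in BGN cells and 59.7 ± 3.03 CPM in Control (log2 fold change -0.012). Mst1r, the gene of the MET relative RON, was at 1.55 ± 0.452 CPM in BGN cells and 1.77 ± 0.310 CPM in Control (log2 fold change -0.20, edgeR adjusted p = 0.975). Fgfr4 had 36 counts over all libraries, Klb 3 and Kl 0; the last 2 encode the co-receptors of the hormone-like FGFs.

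All 15 receptor-proximal adaptor genes were tested, with 13 estimates above and 2 below 0, a median log2 fold change of 0.071 and 0 calls. Over all tested genes, 48.0% of estimates lay above 0. The split was not tested, and genes measured in the same libraries are not independent. Sos2 and Sos1, exchange factors that activate RAS, had the smallest p-values of the list. Sos2 lay between 83.9 and 93.9 CPM in the BGN libraries and between 73.0 and 83.1 CPM in the Control libraries, without overlap (log2 fold change 0.12 ± 0.048 SE, edgeR adjusted p = 0.945). Sos1 lay between 83.5 and 91.3 CPM in BGN cells and between 75.6 and 87.6 CPM in Control (log2 fold change 0.11 ± 0.047 SE, edgeR adjusted p = 0.945). Stat3, with the highest count of the list, was at 695 ± 10.2 CPM in BGN cells and 680 ± 31.4 CPM in Control. The 10 genes of the RAS and ERK cascade split 5 above and 5 below 0 (median 0.00050), with Hras, of the smallest p, at 44.7 ± 2.90 CPM in BGN cells and 47.8 ± 5.22 CPM in Control.

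Feedback inhibitors and target genes of FGF signalling, often read as a gauge of the pathway's output, split 7 above and 6 below 0 (13 of 13 tested, median log2 fold change 0.013, 0 calls). Spred1 and Spred2, which encode inhibitors of RAS activation, were at 211 ± 5.69 and 40.6 ± 2.54 CPM in BGN cells, against 204 ± 10.2 and 38.6 ± 1.63 CPM in Control. Etv5, an ETS factor induced by FGF, was at 23.1 ± 1.25 CPM in BGN cells and 21.8 ± 1.97 CPM in Control. Dusp4, an ERK phosphatase, was at 57.9 ± 3.54 CPM in BGN cells and 58.4 ± 5.02 CPM in Control. The log2 fold changes of the 13 genes ran from -0.15 to 0.12.

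Enzymes that process HGF or its receptor, and their inhibitors, had 2 estimates above and 4 below 0 (6 of 8 tested, median log2 fold change -0.056, 0 calls). Hpn, which encodes the membrane protease hepsin, had the smallest p, at 23.8 ± 0.908 CPM in BGN cells and 27.0 ± 2.06 CPM in Control (log2 fold change -0.18 ± 0.064 SE, edgeR adjusted p = 0.945), and the groups overlapped. St14, the matriptase gene, was at 305 ± 7.68 CPM in BGN cells and 323 ± 20.2 CPM in Control, and Spint2, an inhibitor of both proteases, at 392 ± 8.98 CPM in BGN cells and 409 ± 16.3 CPM in Control. Partners of MET at the membrane split 3 and 3 (6 of 6 tested, median 0.0081), with Cd44, the hyaluronan receptor, at 656 to 706 CPM in the BGN libraries and 600.4 to 664 CPM in the Control libraries (log2 fold change 0.11 ± 0.038 SE, edgeR adjusted p = 0.945). Heparan sulphate and FGF-binding genes split 8 above and 7 below 0 (15 of 15 tested, median 0.0040). Hs6st2, a heparan sulphate sulphotransferase gene, was at 1.92 ± 0.600 CPM in BGN cells and 2.51 ± 0.414 CPM in Control (log2 fold change -0.38 ± 0.21 SE, edgeR adjusted p = 0.945). Sdc1, a syndecan gene with the highest count of this list, was at 858 ± 37.5 CPM in BGN cells and 892 ± 39.0 CPM in Control.

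**Figure D4:**
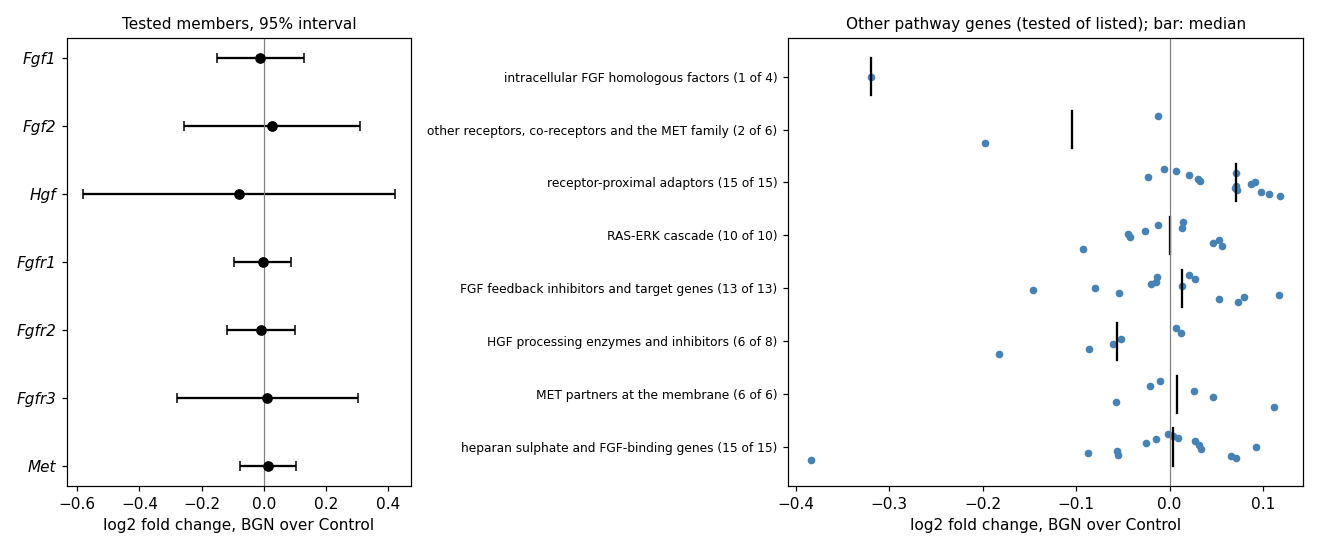
Log2 fold change, BGN over Control, of the 7 tested FGF and HGF genes with 95% intervals (left) and of the 68 tested genes in 8 of the pathway lists, each point a gene and each bar the median (right). All 7 intervals include 0, the narrowest for Met and Fgfr1 and the widest for Hgf.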

How the data were processed

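The authors deposited unnormalized read counts for each gene symbol and sample. Trimming with cutadapt 1.9.1, alignment with HISAT2 2.2.1 and counting with HTSeq, on build GRCm39, are the tools listed in the submitters' processing notes, beside FastQC and DESeq2; which annotation release and strand setting were used is not given in the sources used here. Per the labels' protocols, libraries were poly-A selected (NEBNext Ultra). Groups and replicate numbers came from sample titles. Genes were kept by filterByExpr (minimum count 10), given TMM factors, and tested in edgeR 4.0.16 under R 4.3.3 (quasi-likelihood, robust, treatment only), with Benjamini-Hochberg adjustment over 14415 genes. The F statistic of each estimate gave its SE and 95% interval. Marker sums and marker genes were scaled by library totals alone. Exact permutation tests ran over 252 assignments, so the smallest p is 0.00794. Transcript lengths and overlapping genes were taken by symbol from GENCODE M21 (another build, GRCm38), without coordinates. No libraries agreed within sampling noise (chi-square per degree of freedom at least 2.43). Steps were tested on simulated data. Alternatives were other scalings and filters, DESeq2 1.42.0, limma-voom 3.58.1, no robust estimation, a replicate block, other lengths, and leaving out libraries. Genes to name were the 9 genes, up to 3 list members of smallest p and 2 of highest mean count, of which the text gives 2 to 4 a list, the 3 of most similar profile, and fixed markers. Fgf21, Fgfr4, Klb, Kl and Dpt were added for their counts, and the rest of the basal list to show how its genes differ. A gene that this rule names is not reported here. The genes and lists were chosen with earlier results of these data known.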

Additional observations from a re-analysis of the deposited data

Results flagged for a closer look

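Within each group of 5 libraries, the gap between an end value and its nearest neighbour was set against the whole range, over 38 groups of values; chance flags about 5% of such groups, and 3 were flagged. Fgfr2 in BGN replicate 1 stood at 68.8 CPM, apart from 59.1 to 61.8 CPM in the other 4 BGN libraries. The summed fibroblast markers in BGN replicate 2 stood at 52.7 CPM, apart from 46.4 to 47.6 CPM in the other BGN libraries. The summed lymphocyte markers in Control replicate 4 were at 0.0516 CPM, which is 1 count of Cd79a, with 0 in the other Control libraries.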

How the results depend on the processing

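None of the 7 tested FGF and HGF genes was called under any of 20 alternatives, and the smallest adjusted p among them was 0.923. With estimates this close to 0 the sign carried little information: each gene changed sign in 2 to 6 of the 20. Without single libraries the log2 fold changes ran from -0.040 to 0.012 for Fgf1 (sign turned without BGN replicate 2 or 5, or Control replicate 2 or 3), from -0.025 to 0.10 for Fgf2 (BGN 2 or 5, Control 5), from -0.199 to 0.086 for Hgf (BGN 2, Control 3), from -0.029 to 0.024 for Fgfr1 (BGN 4 or 5, Control 2 or 5), from -0.048 to 0.027 for Fgfr2 (BGN 2 or 5, Control 5), from -0.065 to 0.087 for Fgfr3 (BGN 1, Control 1, 3 or 4) and from -0.0053 to 0.047 for Met (Control 1 or 5). With limma-voom and quality weights the sign turned for Fgf2 (-0.043), Fgfr1 (0.020), Fgfr2 (0.025) and Met (-0.010). With BGN replicate 5 and Control replicate 5 both left out it turned for Fgf2 (-0.076), Fgfr1 (0.027), Fgfr2 (0.047) and Met (-0.0061). The cause was not tested. The difference in Fgf7, 0.0038 CPM, ran from -0.024 to 0.044 CPM without single libraries. Over all genes, 0 were called by edgeR (693 at an unadjusted p under 0.05), DESeq2 (662), limma-voom (808) and edgeR with a replicate block (825); without the filter on low counts 1 was called higher and 2 lower. The labels do not state whether samples of the same replicate number are paired. Correlations of same-numbered libraries ran from -0.020 to 0.20, and 1 of 5 BGN libraries correlated best with its own number. So few correlations cannot settle the pairing. The replicate block gave log2 fold changes of -0.089 for Hgf and 0.016 for Met, with 0 genes called. With the exon union length, 5 of the 9 genes kept their place in the order of levels. Depth limits Hgf, Fgf7 and Fgf10 most, at a mean of 25.3, 3.1 and 0 counts per library.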

Other observations

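The ratio of Met to Fgfr1, each in CPM per kilobase of the longest transcript, was 0.722 ± 0.00841 in BGN and 0.717 ± 0.0806 in Control (SD, n = 5 each), with all libraries between 0.627 and 0.835. This ratio was picked after the values were seen, and the difference in spread was not tested.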
